A study of Mus musculus with 4 samples.

Results

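The 10 genes described here encode enzymes that elongate or desaturate fatty acids or remodel lipids, and a lipid transporter. They are the elongases *Elovl1*, *Elovl2*, *Elovl4*, *Elovl5*, *Elovl6* and *Elovl7*, the desaturases *Fads1* and *Fads2*, the transporter *Mfsd2a* and the acyltransferase *Lpcat1*. They were taken by symbol from a table of 22095 loci, and all 10 were listed, had a successful estimate in every library and passed the filter on low expression. RNA-seq was performed on 4 libraries, 2 from *rd7* and 2 from wild-type retinas. In *rd7* mice *Nr2e3*, which encodes a transcription factor of rod development, is mutated, and the labels give their strain as C57BL/6J. Wild-type mice were also C57BL/6J. Animals of both genotypes were 3 weeks old, and each library was made from 8 retinas of 2 females and 2 males, so that replicates are pools of animals and the spread within a genotype is that between pools.

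Photoreceptor outer segments are rich in docosahexaenoic acid (DHA), a polyunsaturated fatty acid that keeps disc membranes fluid. DHA is made from shorter dietary precursors by alternating desaturation, in which FADS2 and FADS1 introduce double bonds, and elongation, in which ELOVL5 and then ELOVL2 add carbons, before a final shortening step in peroxisomes. ELOVL4 extends such chains further into the very long chain fatty acids that are characteristic of photoreceptors. Preformed DHA also enters the retina from blood as a lysophospholipid carried by MFSD2A.

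Expression was measured as FPKM, the number of sequenced fragments relative to transcript length and to all mapped fragments, which allows levels of different genes to be compared per length. *Nr2e3*, the mutated gene, was measured at 2493 and 1589 FPKM in the *rd7* libraries and at 385 and 394 FPKM in the wild-type libraries. The count does not tell a normal from an abnormal transcript. By an estimate from the lowest FPKM values, which runs low, each library was put at between 3.49e+07 and 3.56e+07 reads. This places between 144 and 21721 reads behind each value of the 10 genes, with a counting error of 8.33% at the lowest (*Mfsd2a*). The exons of all annotated transcripts were taken as the length of a gene. For genes with several transcripts, such as *Mfsd2a*, the reads may therefore be overstated and the counting error understated. The tissue label was checked against defining genes. Of the rod genes, 8 were tested. *Gnat1*, the rod transducin subunit, lay between 2710 and 5206 FPKM. At the threshold used below, 5 of the 8 rod genes were lower and 0 higher in *rd7*, 8 of 10 cone genes were higher and 0 lower, and 7 of 10 Müller cell genes were higher and 0 lower, with 1 gene of each of the cone and Müller lists lower once the libraries were rescaled by median ratios. Of 4 tested blood genes, 3 were lower and 0 higher, of 3 microglial genes 1 was higher and 0 lower, and the 1 tested lens gene was not called. Beside these counts, 37.6% of all genes tested were higher and 8.80% lower, and 19.7% and 19.6% with median-ratio scaling. The part of the shifts in these lists in the results below was not tested.

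RefSeq promoter windows, from 250 bases before to 50 bases after a start site on GRCm38.p6, were matched for 9 of the 10 genes, and *Fads1* was not matched. The bases upstream of the start site (the more upstream of 2 for *Elovl2*) are shown for *Elovl2*, *Elovl5* and *Fads2*, the genes that were higher in *rd7* both without and with median-ratio scaling of the libraries. Capitals mark the letters CCAAT, bound by the factor NF-Y, on either strand, so that ATTGG is the same motif on the other strand. The windows were also searched on both strands for TAATCC, the core of CRX sites, and for AAGTCA, a half-site of NR2E3, neither of which overlaps CCAAT.
*Elovl2* (chr13:41220404-41220653, minus strand): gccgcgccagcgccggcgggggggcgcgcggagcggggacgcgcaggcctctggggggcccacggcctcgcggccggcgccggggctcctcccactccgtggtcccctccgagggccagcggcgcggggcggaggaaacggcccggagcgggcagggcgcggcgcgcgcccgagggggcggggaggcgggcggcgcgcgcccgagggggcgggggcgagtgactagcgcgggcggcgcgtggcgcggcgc
*Elovl5* (chr9:77917115-77917364, plus strand): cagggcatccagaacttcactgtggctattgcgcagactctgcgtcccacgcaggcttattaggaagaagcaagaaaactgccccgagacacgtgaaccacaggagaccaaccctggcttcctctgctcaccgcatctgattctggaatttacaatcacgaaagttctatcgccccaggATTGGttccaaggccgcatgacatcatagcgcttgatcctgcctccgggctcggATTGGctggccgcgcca
*Fads2* (chr19:10101504-10101753, minus strand): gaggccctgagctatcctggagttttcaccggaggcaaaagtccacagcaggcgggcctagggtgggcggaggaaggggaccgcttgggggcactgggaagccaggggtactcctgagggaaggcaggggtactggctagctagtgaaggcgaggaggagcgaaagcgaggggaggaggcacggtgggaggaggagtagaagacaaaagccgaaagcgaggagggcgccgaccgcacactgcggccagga
A gene was counted if any of its windows held a motif, and the 9 matched genes had 11 windows. The shares of all windows are by window, so the units differ. CCAAT was found in 4 of the 9 matched genes (*Elovl1*, *Elovl4*, *Elovl5* and *Mfsd2a*) and in 37.4% of all 32851 windows. TAATCC was found in 1 gene, *Lpcat1*, and in 7.06% of all windows, and AAGTCA in 0 genes and in 15.1% of all windows. These matches describe letters in a short window and are not evidence of binding. The *Elovl2* window shown, with its 50 bases past the start site, had a GC content of 84.7% and held 56 CpG dinucleotides. The corresponding window had a GC content of 57.7% with 20 CpG in *Elovl5* and of 67.0% with 23 CpG in *Fads2*, and the median GC content over all windows was 52.7%.

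In wild-type retinas, *Elovl4*, the elongase of very long chain fatty acids, had the highest level of the 10 genes, at 181 and 179 FPKM. *Lpcat1*, which remodels the acyl chains of phosphatidylcholine, followed at 38.3 and 40.7 FPKM. *Fads2* and *Fads1* came next, with ranges over the 2 libraries of 19.8 to 20.6 and 18.3 to 19.6 FPKM, and then *Elovl2* at 15.6 to 16.1 FPKM. In this order each gene lay above the next without overlap. The spread between pools does not measure error that differs between genes, such as that from GC content. The order of close genes such as *Fads2* and *Fads1* is therefore uncertain. *Elovl6* (12.9 to 13.8 FPKM) and *Elovl5* (11.6 to 13.3 FPKM) overlapped, so that their order is not resolved. *Elovl1* (6.73 to 6.77 FPKM), *Mfsd2a* (1.81 to 2.23 FPKM) and *Elovl7* (1.06 to 1.21 FPKM) were lowest. In *rd7* retinas *Elovl2* moved from the fifth to the second rank, above *Lpcat1*. *Elovl5* and *Elovl6* again overlapped, and the other genes kept their order.

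**Figure D1:**
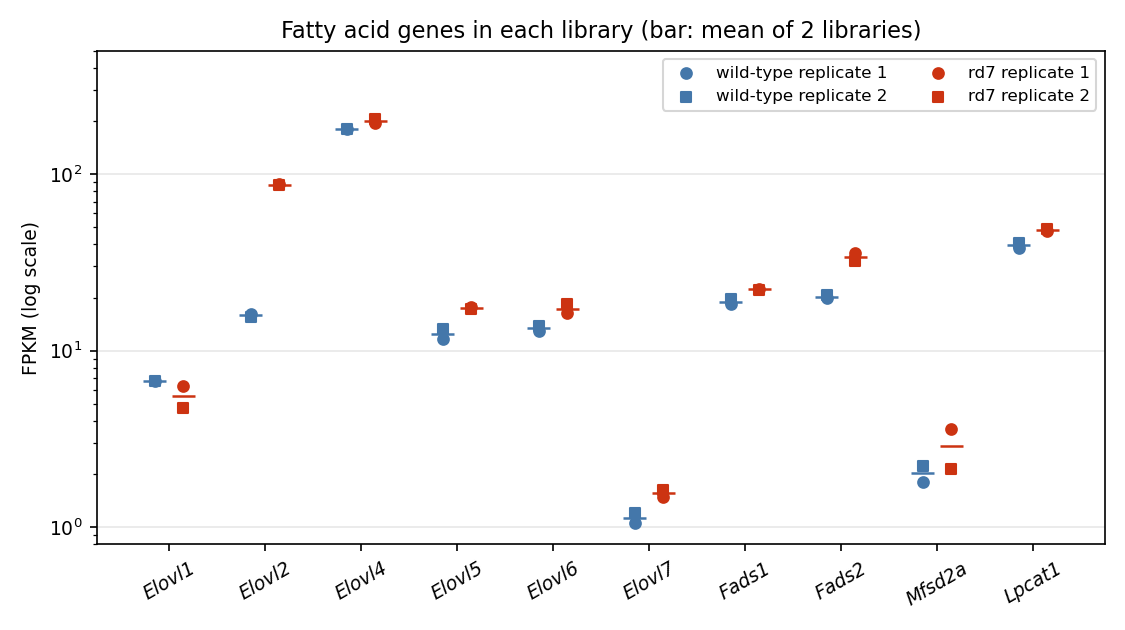
FPKM (log axis) of the 10 genes in each library, with wild-type in blue, *rd7* in red, a symbol for each replicate and a bar at the mean of 2 libraries. *Elovl2* stands apart, with 15.6 and 16.1 FPKM in wild-type and 87.0 and 87.5 FPKM in *rd7*, while the wild-type and *rd7* values of *Mfsd2a* overlap.

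To ask which of these genes differ between *rd7* and wild-type retinas, log2(FPKM + 0.1) was compared with limma across 12655 genes (mean FPKM of 1 or more over the libraries), with Benjamini-Hochberg adjustment and a false discovery rate (FDR) of 5%. A fold change on this scale slightly understates that of a gene with low FPKM. Of the 10 genes, 7 were higher in *rd7* (*Elovl2*, *Elovl4*, *Elovl5*, *Elovl6*, *Fads1*, *Fads2* and *Lpcat1*), 0 were lower and 3 did not pass the test. Across all genes tested, 37.6% were higher and 8.80% lower. The median log2 fold change was 0.40 over the 10 genes and 0.15 over all genes. Median-ratio scaling, which divides a library by the median of its genes' ratios to their geometric means, moved the median of all genes to -0.0049. Then 3 of the 10 genes (*Elovl2*, *Elovl5* and *Fads2*) were higher and 1 (*Elovl1*) lower, beside 19.7% higher and 19.6% lower of all genes. Both *rd7* values lay above both wild-type values in 8 of the 10 genes and below them in 1, beside 57.1% and 19.5% of all genes. With each library adjusted for the GC content and length of exons, 2 of the 10 genes (*Elovl2* and *Fads2*) were higher and 0 lower, beside 12.4% higher and 15.1% lower of all genes. This correction also removes the mean deviation of each library, and the median of all genes was then -0.0229. Without wild-type replicate 1, 3 genes were higher (*Elovl2*, *Elovl5* and *Fads2*) beside 10.2% of all genes. Without wild-type replicate 2, 4 were, with *Lpcat1* as the fourth, beside 16.8% of all genes. At an FDR of 1%, 4 of the 10 genes were higher and 0 lower, beside 20.4% and 3.52% of all genes. With quantile normalization, 3 were higher and 1 lower, beside 18.6% and 19.0% of all genes. Without a filter on low FPKM, 2 were higher and 0 lower, beside 10.3% and 2.08% of all genes. *Elovl2* and *Fads2* were called higher in each of the 14 other settings, and the log2 fold changes of the other 8 genes lay between the 6.84 and the 86.8 percentile of all genes tested. In bulk tissue, a change in the number of cells of a type and a change in RNA per cell cannot be told apart.

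The largest difference was in *Elovl2*, the elongase that carries polyunsaturated chains to the length from which DHA is formed. Its locus spans 41277751 to 41315772 of chromosome 13 (mm9). Its level was 87.5 and 87.0 FPKM in the *rd7* libraries and 16.1 and 15.6 FPKM in the wild-type libraries. The replicates nearly coincided in each genotype, and the genotypes were far apart. The means were 87.2 ± 0.337 FPKM (SD, n = 2) and 15.9 ± 0.360 FPKM (SD, n = 2), a 5.50-fold difference. The log2 fold change was 2.45 (standard error 0.05, 95% interval 2.33 to 2.57, adjusted p = 1.75e-05 from limma). It ranked 36 from the highest among the 12655 genes tested. Over the other settings it ranged from 2.16 to 2.47, so that none of the scalings removed the difference.

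*Elovl5*, which elongates shorter polyunsaturated chains before ELOVL2 acts, rose less. It lies on chromosome 9 from 77765172 to 77832326, and *Elovl4* lies on the same chromosome from 83672300 to 83699912, at distances of 18.0 and 23.9 Mb from *Nr2e3*. The level of *Elovl5* was 17.7 and 17.3 FPKM in *rd7* and 11.6 and 13.3 FPKM in wild-type libraries. These groups did not overlap, and the log2 fold change was 0.50 (standard error 0.08, adjusted p = 0.00488 from limma). The value was 0.22 after the GC content and length correction and was no longer called (adjusted p = 0.0685 from limma). The ratio of *Elovl2* to *Elovl5* within a library is unchanged by a single scaling factor for that library. Quantile normalization and the GC content and length correction can change it. From the FPKM values, the ratio was 4.93 and 5.02 in *rd7* and 1.39 and 1.18 in wild-type retinas.

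*Elovl4* is known for mutations that cause an inherited macular dystrophy and is expressed in photoreceptors. Its level was 195 and 204 FPKM in *rd7* and 181 and 179 FPKM in wild-type libraries. The groups did not overlap but were close, with a log2 fold change of 0.15 (standard error 0.05, 95% interval 0.03 to 0.27, adjusted p = 0.0486 from limma). This value is close to the median of all genes (0.15). The direction turned under median-ratio scaling (-0.0043) and after the GC content and length correction (-0.15), and the call held in 5 of the 14 other settings. As a share of the summed FPKM of the 6 elongases, *Elovl4* made up 78.8% and 78.0% in wild-type and 60.1% and 61.3% in *rd7* libraries. The share of *Elovl2* was 7.04% and 6.80% in wild-type and 27.0% and 26.1% in *rd7* libraries. *Elovl4* thus remained the most abundant elongase transcript in every library, with 11.2 and 11.5 times the level of *Elovl2* in wild-type and 2.23 and 2.35 times in *rd7* retinas.

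**Figure D2:**
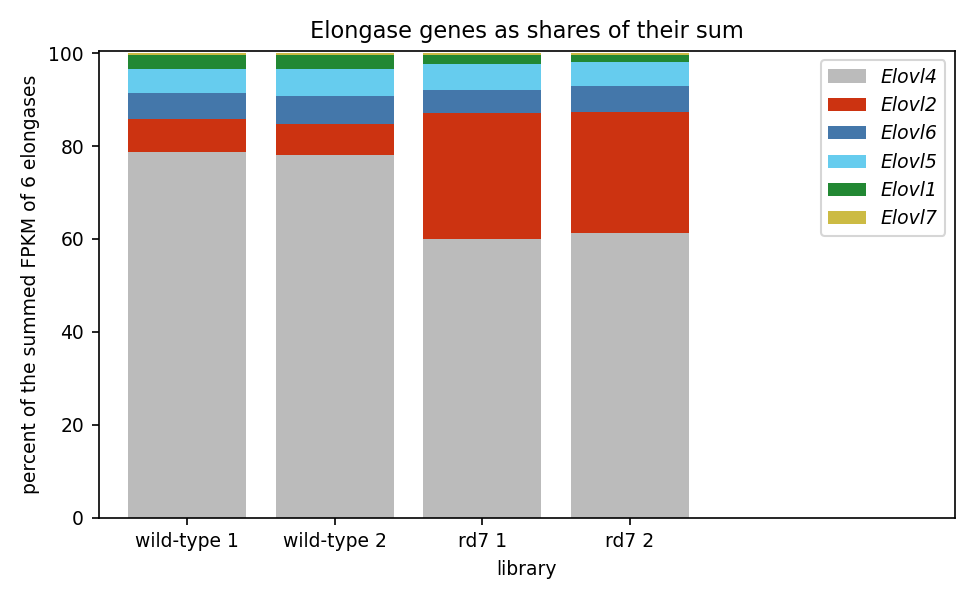
Each bar is a library and shows the 6 elongase genes as percent of their summed FPKM. *Elovl2* (red) takes 7.04% and 6.80% in the wild-type libraries and 27.0% and 26.1% in the *rd7* libraries, and *Elovl4* (grey) is the largest share in all 4.

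The remaining elongases act mainly on saturated and monounsaturated chains. *Elovl6*, which extends palmitate, was measured at 16.3 and 18.3 FPKM in *rd7* and 12.9 and 13.8 FPKM in wild-type libraries. It was called higher (log2 fold change 0.37, standard error 0.08, adjusted p = 0.0121 from limma), and the value was 0.21 with median-ratio scaling, 0.22 with quantile normalization and 0.04 with the GC content and length correction, none of them called. *Elovl7* was measured at 1.49 and 1.63 FPKM in *rd7* and 1.06 and 1.21 FPKM in wild-type libraries. These values did not overlap, but the log2 fold change of 0.43 (95% interval 0.05 to 0.80) had an adjusted p of 0.065 from limma. It was called without *rd7* replicate 1 (0.49, adjusted p = 0.0415 from limma) and when variances were moderated without a trend (0.43, adjusted p = 0.0227 from limma). *Elovl1*, which makes very long saturated chains for sphingolipids, was the only member with a negative value. Its level was 6.28 and 4.75 FPKM in *rd7* and 6.77 and 6.73 FPKM in wild-type libraries, so that both *rd7* values lay below wild-type but were themselves far apart. The log2 fold change was -0.30 (95% interval -0.63 to 0.03, adjusted p = 0.115 from limma). It was called lower with quantile normalization (-0.48, adjusted p = 0.0447 from limma), under median-ratio scaling (-0.45, adjusted p = 0.0406 from limma) and without *rd7* replicate 1 (-0.50), and it was -0.10 without *rd7* replicate 2. The locus of *Elovl1* overlaps that of *Cdc20* on the other strand by 16 bases.

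**Figure D3:**
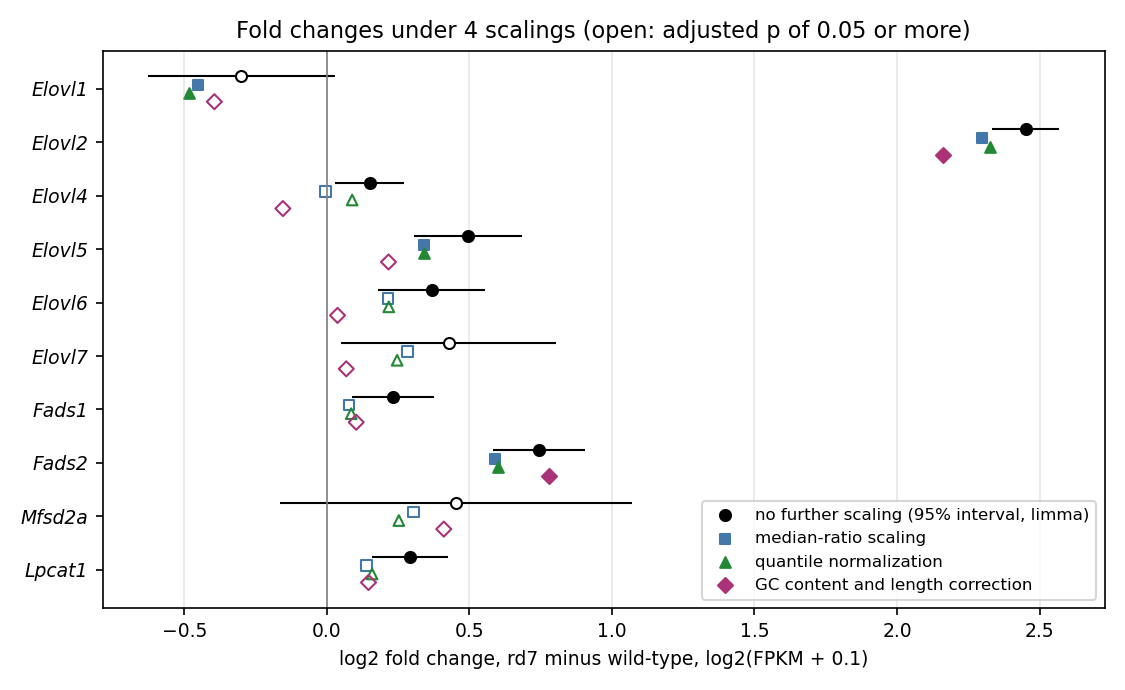
Log2 fold changes of the 10 genes, *rd7* minus wild-type, without further scaling (black, with the 95% interval from limma) and under 3 alternatives (coloured). Filled symbols were called at an FDR of 5%. *Elovl2* and *Fads2* are filled under all 4, and *Elovl4* lies on both sides of 0.

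The desaturases lie near each other on chromosome 19, *Fads2* from 10138654 to 10175993 and *Fads1* from 10257378 to 10271360. *Fads2* encodes the desaturase that opens the pathway and acts again late in DHA synthesis. Its level was 35.6 and 32.3 FPKM in *rd7* and 19.8 and 20.6 FPKM in wild-type libraries, or 33.9 ± 2.34 and 20.2 ± 0.587 FPKM (SD, n = 2 each), a 1.68-fold difference. Both *rd7* values were well above both wild-type values. The log2 fold change was 0.74 (standard error 0.07, 95% interval 0.58 to 0.91, adjusted p = 0.00123 from limma), above 95.1% of all genes tested, and it ranged from 0.59 to 0.81 over the other settings. *Fads1*, whose product acts between the elongation steps, was at 22.5 and 22.1 FPKM in *rd7* and 18.3 and 19.6 FPKM in wild-type libraries. It did not overlap between genotypes and was called higher (log2 fold change 0.23, standard error 0.06, adjusted p = 0.0221 from limma), but not under median-ratio scaling (0.08, adjusted p = 0.283 from limma), quantile normalization (0.09) or the GC content and length correction (0.10). The ratio of *Fads2* to *Fads1* within a library was 1.58 and 1.46 in *rd7* and 1.08 and 1.05 in wild-type retinas.

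*Lpcat1*, mutated in a mouse model of retinal degeneration, was at 47.6 and 49.2 FPKM in *rd7* and 38.3 and 40.7 FPKM in wild-type libraries. The groups did not overlap, and the log2 fold change was 0.29 (standard error 0.05, adjusted p = 0.00834 from limma). It was 0.14 under median-ratio scaling (adjusted p = 0.08 from limma) and 0.15 with the GC content and length correction (adjusted p = 0.0828 from limma). *Mfsd2a*, whose product is expressed in vascular endothelium and pigment epithelium, was at 3.61 and 2.14 FPKM in *rd7* and 1.81 and 2.23 FPKM in wild-type libraries. The groups overlapped, and the log2 fold change of 0.45 (95% interval -0.16 to 1.07, adjusted p = 0.186 from limma) did not pass the test. It depended on the pool, with 0.82 (adjusted p = 0.0021 from limma) without *rd7* replicate 2 and 0.09 without *rd7* replicate 1. Over the same libraries, the summed level of 10 endothelial genes was 72.7 and 55.0 FPKM in *rd7* and 45.9 and 48.9 FPKM in wild-type. Of the 10, 2 were called higher and 0 lower. The sum of 10 pigment epithelium genes was 66.6 and 54.5 FPKM in *rd7* and 35.7 and 24.6 FPKM in wild-type, with 5 of the 7 tested called higher and 0 lower. Of this sum, *Ttr* alone gave 39.3 and 34.9 FPKM in *rd7* and 21.1 and 13.1 FPKM in wild-type. Both *rd7* values lay above both wild-type values in 6 of the 10 and below them in 1 (*Best1*), beside 57.1% and 19.5% of all genes tested. Beside the calls in these lists, 37.6% of all genes tested were higher and 8.80% lower. No gene of either list was at 0 in any library. The part of these cells in the level of *Mfsd2a* was not tested.

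**Figure D4:**
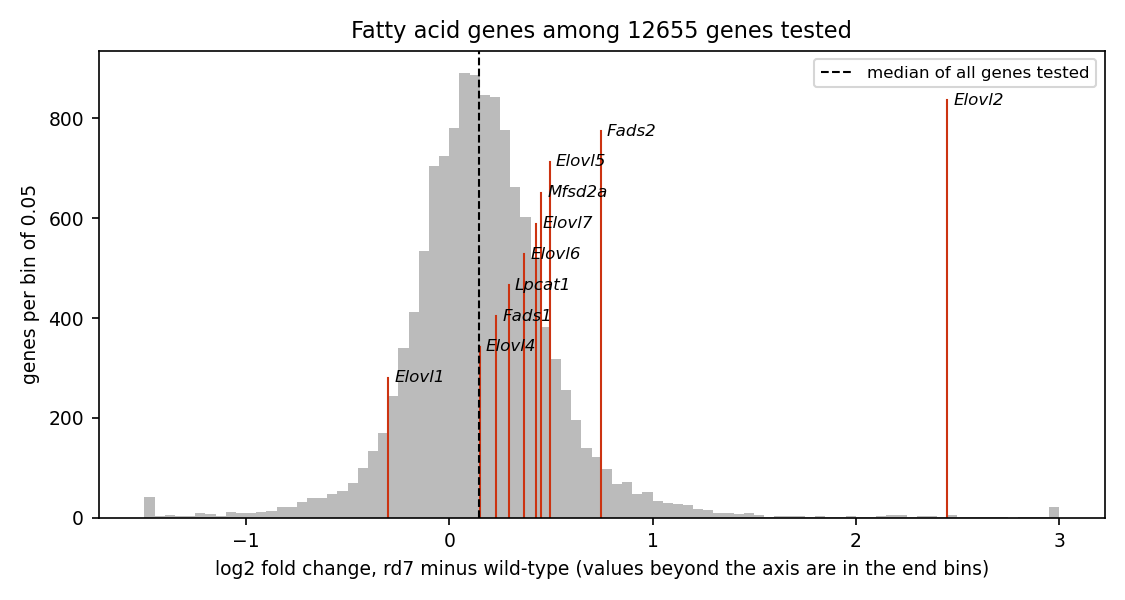
The grey histogram gives the log2 fold changes, *rd7* minus wild-type, of the 12655 genes tested, and red lines mark the 10 fatty acid genes. *Elovl2* lies far in the upper tail and *Elovl1* in the lower flank, while *Elovl4* lies at the median of 0.15 (dashed line).

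To place these genes in their pathway, 76 other genes of fatty acid metabolism in 10 lists were counted, of which 61 passed the filter. Of these, 30 were higher and 6 lower in *rd7* (49.2% and 9.84%, beside 37.6% and 8.80% of all genes), with a median log2 fold change of 0.24. With median-ratio scaling, 16 were higher and 13 lower, beside 19.7% and 19.6% of all genes. Without wild-type replicate 1, 9 were higher and 0 lower, beside 10.2% and 1.77% of all genes. Without wild-type replicate 2, 16 were higher and 0 lower, beside 16.8% and 2.67% of all genes. The shares of all genes given here also apply to the counts by list below. From each list, the called genes with the largest rise and the largest fall without overlap are given, and their adjusted p-values are from limma.

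Among the other members of the elongase and desaturase families, *Fads3* and *Fads6* were both higher, and *Elovl3* is listed at 0 in all 4 libraries. *Fads6* had a level of 3.71 and 4.58 FPKM in *rd7* and 2.07 and 2.84 FPKM in wild-type (log2 fold change 0.74, adjusted p = 0.0195). The elongase supplies only the first reaction of each cycle, and the enzymes of the other reactions (*Hsd17b12*, the *Ptpl* dehydratases and *Tecr*) comprised 5 tested genes, of which 3 were higher and 0 lower. The largest rise among them was that of the dehydratase gene *Ptplb* (log2 fold change 0.34, adjusted p = 0.0114), and with median-ratio scaling 0 of the 5 were called.

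Acyl-CoA synthetases activate fatty acids for elongation and esterification, and 3 of 5 were higher. *Acsl1* was at 48.8 and 47.7 FPKM in *rd7* and 23.8 and 23.4 FPKM in wild-type retinas, a 2.04-fold difference (log2 fold change 1.03, adjusted p = 0.000226). Lysophospholipid acyltransferases, the family of *Lpcat1*, place acyl chains into membrane lipids. Of the 11 tested, 5 were higher and 1 lower, and 4 and 4 with median-ratio scaling. *Mboat2* rose most, from 3.06 and 3.10 FPKM in wild-type to 5.80 and 6.18 FPKM in *rd7* (log2 fold change 0.94, adjusted p = 0.00105), and *Agpat1* fell (log2 fold change -0.21, adjusted p = 0.0315). *Agpat3*, by level the highest of this list, was at 302 and 315 FPKM in *rd7* and 326 and 329 FPKM in wild-type and was not called (log2 fold change -0.09, adjusted p = 0.191). Its value was -0.24 under median-ratio scaling and was then called lower (adjusted p = 0.0149), as it was without *rd7* replicate 2 (-0.11, adjusted p = 0.0356). *Agpat3* was named after its values were seen.

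Of 6 tested genes for fatty acid uptake and DHA retention, 3 were higher and 0 lower. The fatty acid binding protein gene *Fabp7* had 146 and 81.6 FPKM in *rd7* and 2.46 and 2.14 FPKM in wild-type (log2 fold change 5.51, adjusted p = 0.00023), with the *rd7* libraries far apart. In the peroxisomal list, which holds the enzymes of the shortening step of DHA synthesis, 5 of 8 were higher and 1 was lower. *Abcd3*, a peroxisomal fatty acid transporter, was higher (log2 fold change 0.49, adjusted p = 0.00212), and with the GC content and length correction its value was 0.19 and not called (adjusted p = 0.0504). The thiolase gene *Acaa1a* was lower (-0.28, adjusted p = 0.00607). *Acaa1a* was at 43.9 and 43.5 FPKM in *rd7* and 52.5 and 53.5 FPKM in wild-type.

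Synthesis of saturated and monounsaturated chains, which precedes elongation by ELOVL6, had 3 of 6 genes higher and 1 lower. *Acly*, which makes cytosolic acetyl-CoA from citrate, was at 117 and 115 FPKM in *rd7* and 57.1 and 58.0 FPKM in wild-type, a 2.02-fold difference (log2 fold change 1.01, adjusted p = 0.000202). *Me1*, which makes NADPH, fell (log2 fold change -0.37, adjusted p = 0.0177). Among 9 transcription regulators of lipid genes, 2 were higher and 2 lower, and 0 and 4 with median-ratio scaling. *Srebf1*, which encodes a transcription factor that activates fatty acid synthesis genes, was lower, with 12.0 and 13.5 FPKM in *rd7* and 16.6 and 15.7 FPKM in wild-type (log2 fold change -0.34, adjusted p = 0.0154). *Ppara*, a fatty acid receptor gene, was higher (log2 fold change 0.24, adjusted p = 0.0448).

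In the list of phospholipase A2 family genes and genes that oxygenate polyunsaturated chains, 4 of 10 passed the filter. Of these, 1 was higher (*Pla2g7*, log2 fold change 0.19, adjusted p = 0.0364) and 1 lower (*Pla2g5*, -0.19, adjusted p = 0.0189). The value of *Pla2g7* turned to -0.06 with the GC content and length correction. Ceramide synthases attach long chains to sphingoid bases, and 3 of 5 were higher and 0 lower. *Lass6*, now named *Cers6*, was at 6.24 and 6.00 FPKM in *rd7* and 2.63 and 2.93 FPKM in wild-type, a 2.20-fold difference (log2 fold change 1.11, adjusted p = 0.000965). Of the 15 genes chosen in this way, 3 (*Ptplb*, *Ppara* and *Pla2g7*) were no longer called with median-ratio scaling, 4 with quantile normalization and 5 (*Abcd3*, *Fads6*, *Ptplb*, *Ppara* and *Pla2g7*) with the GC content and length correction. *Acly*, *Acsl1*, *Fabp7*, *Lass6* and *Mboat2* were called in every setting that gave a value. Without wild-type replicate 1, 9 of the other 10 were not called (all but *Abcd3*), and without wild-type replicate 2, 8 were not called (all but *Abcd3* and *Fads6*), each with its direction kept. *Ppara* was also not called without *rd7* replicate 1.

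**Figure D5:**
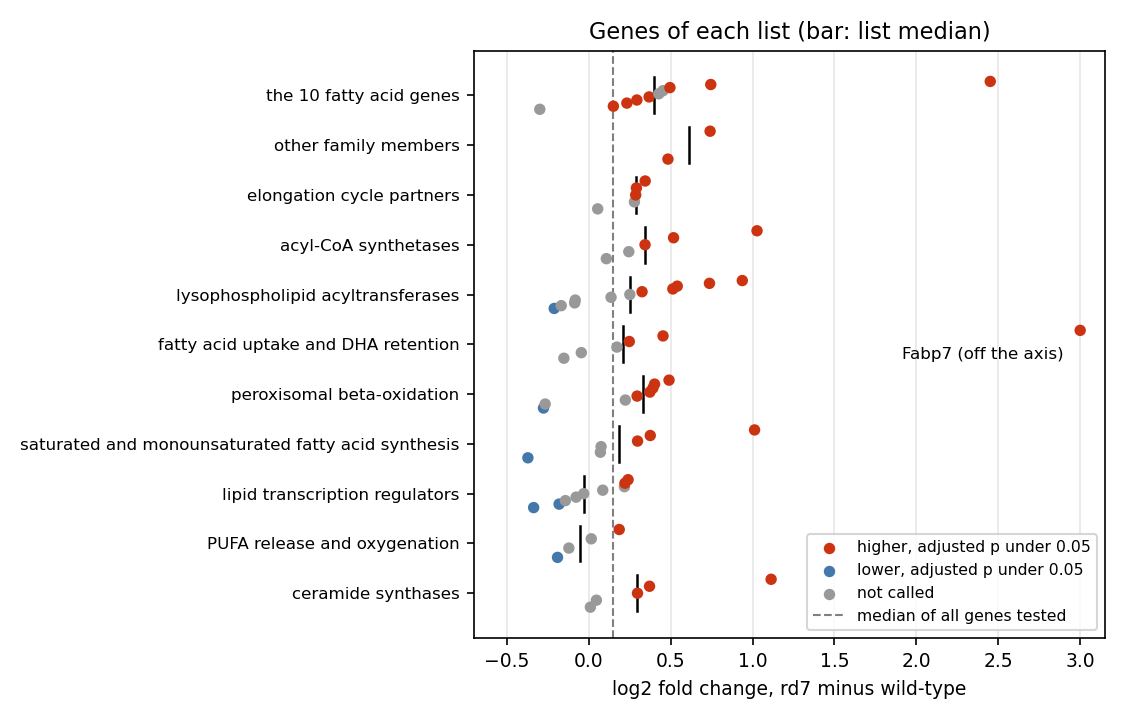
Points are the tested genes of each list, placed by log2 fold change (*rd7* minus wild-type) and coloured by the limma call at an FDR of 5%, with a black bar at the list median and a dashed line at the median of all genes. *Elovl2*, at 2.45, is the rightmost of the 10 fatty acid genes, and *Fabp7*, at 5.51, is drawn at the edge of the axis.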

How the data were processed

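Retinas were profiled by RNA-seq in 2 *rd7* and 2 wild-type libraries. Per the labels and methods, the authors aligned 50 bp single-end reads against mm9 using TopHat 1.4.1, and they deposited FPKM for every gene in every library as computed by Cufflinks 1.3.0. A second deposited table, with their own Cuffdiff comparison (pooled values per genotype, fold changes, p-values and q-values), was not used.

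Loci with a status other than successful in any library (262) were left out. Values were taken as log2(FPKM + 0.1), and loci with a mean FPKM of at least 1 (12655, called genes here) were tested two-sided with limma 3.58.1 (R 4.3.3), with variances moderated along a trend on expression and no block. P-values were adjusted over all genes by Benjamini-Hochberg, and the FDR was 5%. The step was tested on simulated data. A first simulation, with every gene's variance exactly on the fitted trend, gave false calls well above the nominal rate. It was replaced by one with gene-specific variances, as limma's model assumes, which did not, and the limit set for recovering large changes was relaxed in the same step. Because the second simulation drew variances as the fit assumes, it cannot show that the FDR of 5% holds in these libraries. The share of false calls may therefore exceed 5%. Calls with an adjusted p close to the threshold, such as those of *Elovl4* and *Ppara*, are the least certain. FPKM corrects for transcript length and depth but not for library composition, GC content or strand, and whether counting used strand is not given in the sources used here.

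Depth was estimated from low values in genes with a single annotated transcript over 800 bp, within a window of 0.02 to 0.036 FPKM times kb. The annotated length exceeds the effective length used by Cufflinks, so the estimates of library depth run low. Reads per gene were computed from the joined exons of all its transcripts, which can exceed the length of the transcripts expressed. These estimates cover counting error only. Exonic length and GC content came from GENCODE vM1 on the same build and were found for 96.9% of the genes tested. Each library was corrected with natural splines (5 degrees of freedom for each property) of its deviations from the gene means. The fit had an intercept, so the mean deviation of the library was removed as well. Loci are written with their first base counted as 1. The promoter windows are from RefSeq on another build, GRCm38.p6, and protein sequences were not used here.

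Alternatives were an FDR of 1%, pseudocounts of 0.01 and 1, a minimum mean FPKM of 5 or none, variances moderated without a trend, quantile normalization, median-ratio scaling, the GC content and length correction, a block on replicate number, and each library left out in turn. The 10 genes, the lists and the tests were chosen with earlier results of these data known. All 10 genes are named, and from each other list the called genes with the largest rise and the largest fall whose values did not overlap. *Agpat3* was added after its values were seen. Lists were counted and not tested as sets.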

Additional observations from a re-analysis of the deposited data

How the results depend on the processing

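Of the 10 fatty acid genes, 7 were higher and 0 lower at an FDR of 5%. The count of higher genes was 4 at an FDR of 1%, 2 with the GC content and length correction, 3 under median-ratio scaling, 3 with quantile normalization and 2 without a filter on low FPKM, and 1 gene was lower with either of median-ratio scaling and quantile normalization. Of 61 other pathway genes, 30 were higher and 6 lower. The corresponding numbers were 18 and 1 at an FDR of 1%, 12 and 8 with the GC content and length correction, 16 and 13 under median-ratio scaling, 14 and 13 with quantile normalization, and 13 and 3 without a filter. The shares of all genes higher and lower in these fits were 20.4% and 3.52% at an FDR of 1%, 12.4% and 15.1% with the GC content and length correction, 19.7% and 19.6% under median-ratio scaling, 18.6% and 19.0% with quantile normalization, and 10.3% and 2.08% without a filter. Scaling centres the median of all genes near 0 by construction. The GC content and length correction also removes the mean deviation of each library, so that part of its shift is re-centring. An FDR of 1% is a stricter threshold, and the cause of the remaining shifts was not tested. With each library left out in turn, between 3 and 8 of the 10 genes were higher and between 0 and 1 lower, and between 9 and 34 other pathway genes were higher and between 0 and 9 lower. Fewer genes of both sets were called higher without either wild-type library than in the main fit, and the fewest without wild-type replicate 1. In these fits the lone library of a genotype is assumed to vary like the others.

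The direction of *Elovl4* turned under median-ratio scaling (-0.0043) and after the GC content and length correction (-0.15), and that of *Pla2g7* after the latter (-0.061). Of the 138 refitted fold changes of the 10 genes, 2 (both of *Elovl4*) turned and lost the call, 28 others lost it with the direction kept, and 6 gained a call. *Elovl7* and *Mfsd2a* had no value at a minimum mean FPKM of 5. Libraries that share a replicate number did not deviate together (Pearson r = -0.0265 over genes between the number 1 libraries, each relative to its genotype mean), so the numbers were not taken as a pairing. With a block on the replicate number, 6 of the 10 genes were higher and 0 lower (*Elovl4* was no longer called, adjusted p = 0.0792 from limma). In the same fit, 29 other pathway genes were higher and 5 lower, beside 35.6% and 8.62% of all genes. Depth limits *Mfsd2a* and *Elovl7* most, with an estimated 144 and 204 reads at the lowest.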
